A study of Mus musculus with 6 samples.

Results

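The phagocyte NADPH oxidase was examined through 6 of its genes, Cybb, Cyba, Ncf1, Ncf4, Rac1 and Rac2, in LSK cells of Gfi1 knockout and wild-type mice. LSK cells are the lineage-negative, Sca-1+ and Kit+ cells of the bone marrow, a fraction enriched in haematopoietic stem cells. A probe set was taken when the platform annotation gave it exactly 1 gene symbol and that symbol was one of the 6, which gave 9 probe sets out of 22626 (20380 of them with 1 symbol, for 12393 genes). There were 6 arrays, each 1 sample of flow-sorted cells: 3 labelled Gfi1 knockout and 3 labelled wild type, with the sample numbers 5, 7 and 8 in each group. It is not known here which knockout allele and strain were used, how old the mice were, or whether any sample was a pool. What makes the 3 samples of a group differ is therefore open. A limma p-value of the main fit rests only partly on the spread among those 3 samples. The fit also draws the variance of each probe set towards a trend over all probe sets tested.

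The NADPH oxidase moves electrons from NADPH across a membrane to oxygen and so makes superoxide, which phagocytes use to kill microbes. Its catalytic core lies in the membrane, and its cytosolic subunits join it only after the cell is stimulated, together with a Rac GTPase. Inherited loss of a core or cytosolic subunit causes chronic granulomatous disease, in which phagocytes make little or no superoxide. The genes of the phagocyte subunits are best known from neutrophils and macrophages, and Rac1 and Rac2 also act on the actin cytoskeleton of stem and progenitor cells. Gfi1 is a transcriptional repressor of stem and progenitor cells and of granulocyte development.

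The targeted gene gave no check of the labels. The single Gfi1 probe set read 692, 1163 and 1737 on knockout arrays 5, 7 and 8 and 632, 608 and 723 on wild-type arrays 5, 7 and 8, a difference of 0.76 ± 0.28 (SE; limma adjusted p = 0.148). The labels do not say which part of the gene was removed, and a probe set outside it checks nothing, so the group is called knockout-labelled here, and each direction below rests on the labels. Kit, which is in the definition of LSK cells, was above the control level on every array. Ly6a, which encodes Sca-1, was not analysed here. Cd34, Flt3 and Cd48, which are not in that definition, were also above the control level on every array. That control level is the brightest of 27 probe sets for Bacillus transcripts, 100 to 162 over the arrays.

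None of the 7 oxidase probe sets bright enough to be tested differed between the groups beyond the threshold. Signals are in arbitrary units on a linear scale, and differences are knockout-labelled minus wild type on the log2(signal + 16) scale. By limma with an adjusted p under 0.05, 0 of the 7 were higher and 0 lower, against 1.44% higher and 2.19% lower among the 13575 probe sets tested. At an unadjusted p under 0.05 there was 1 lower, for Ncf1, and 0 higher, where 10.5% of all probe sets tested were lower and 9.08% higher. The median difference of the 7 was -0.19, beside -0.01 over all probe sets tested. That median counts Ncf1 and Rac1 by 2 probe sets each. By the brightest probe set per tested gene, Cyba stood at 0.24, Ncf1 at -0.80, Ncf4 at 0.35, Rac1 at 0.11 and Rac2 at -0.19. The middle of these is 0.11, so the sign of the median depends on how genes are counted. The 2 probe sets that were too dim to be tested, the one for Cybb and the dimmest for Rac1, are given by their values.

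**Figure D1:**
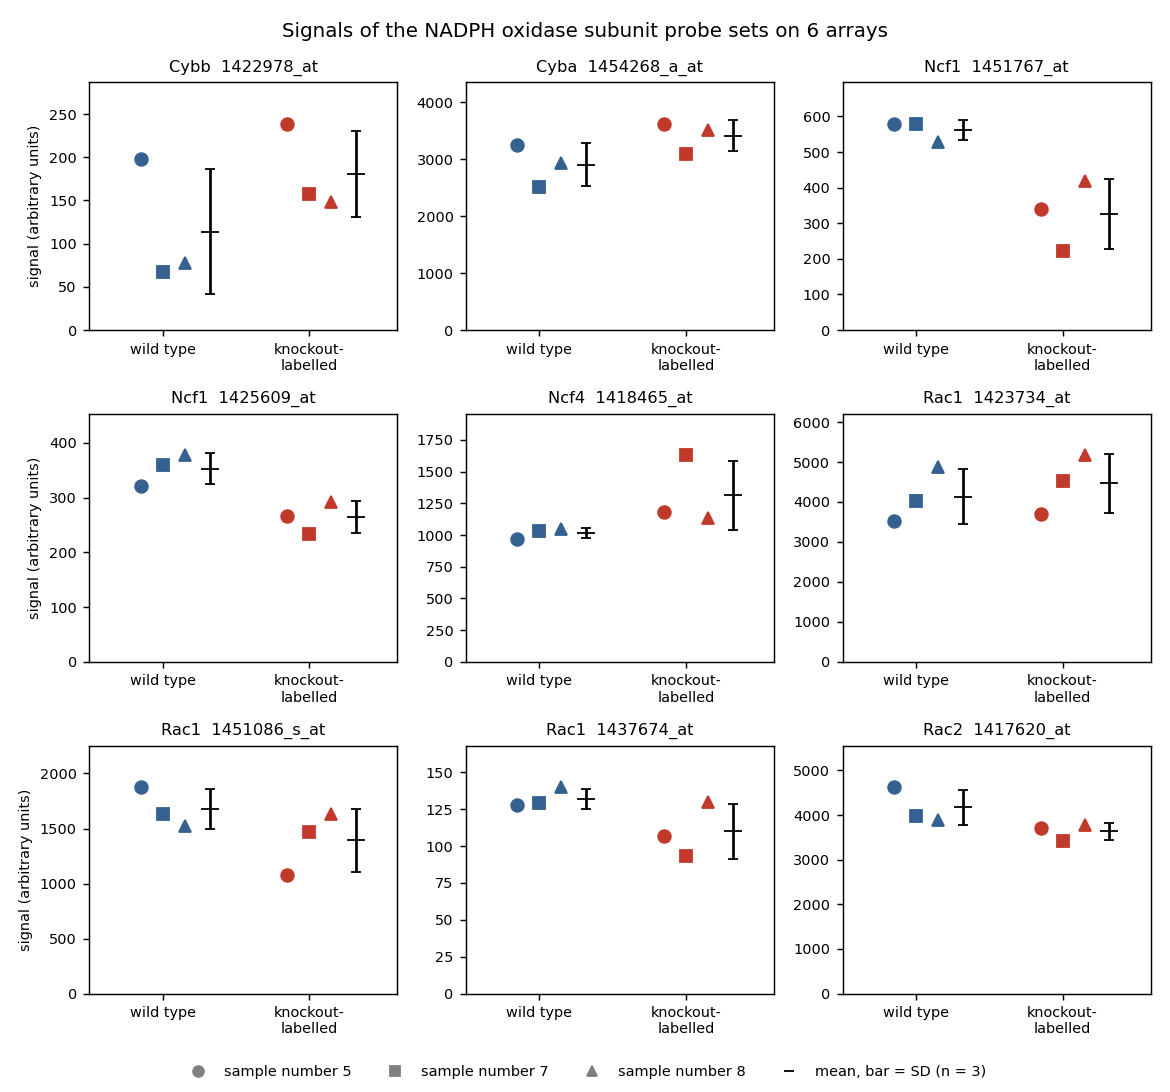
Signal of each of the 9 oxidase probe sets (vertical axes, arbitrary units, starting at 0, each on its own scale) on the wild-type (blue) and knockout-labelled (red) arrays; the marker shape gives the sample number and the black bars the mean ± SD of 3 arrays. Both Ncf1 probe sets and Rac2 lie lower, and Ncf4 higher, on all 3 knockout-labelled arrays, while the groups overlap for Cybb, Cyba and the 3 Rac1 probe sets.

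The membrane core is the flavocytochrome formed by Cybb, which encodes the catalytic subunit gp91phox, and Cyba, which encodes its partner p22phox. Cybb had signals of 239, 157 and 148 on knockout-labelled arrays 5, 7 and 8. On wild-type arrays 5, 7 and 8 it read 198, 67.7 and 77.5. The groups overlapped, because wild-type array 5 was brighter than knockout-labelled arrays 7 and 8, and the array numbered 5 was the brightest of its group in both.

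The group means of Cybb were 181 ± 49.9 and 114 ± 72.6 (SD, n = 3 each), and the mean of the log2 values differed by 0.70. Its mean over the 6 arrays was 148, below the lowest mean tested, about 198, and it did not exceed the control level on 3 of the 6 arrays (1 knockout-labelled and 2 wild type). Fitted with all probe sets included, Cybb had a limma adjusted p of 0.528, and the 95% interval of its difference ran from -0.27 to 1.67. The difference was 1.13 without wild-type array 5, where both remaining wild-type values were below the control level, and 0.45 without wild-type array 7.

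Cyba was well above the control level on every array. It read 3626, 3099 and 3522 on knockout-labelled arrays 5, 7 and 8, and 3257, 2510 and 2940 on wild-type arrays 5, 7 and 8. Each knockout-labelled array was brighter than the wild-type array of the same number, but the groups overlapped. The difference was 0.24 ± 0.17 (SE; limma adjusted p = 0.482), which is a ratio of 1.18 with a 95% interval of 0.917 to 1.52.

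The cytosolic subunits in the set are Ncf1 and Ncf4. Ncf1 encodes p47phox, the organiser that carries the cytosolic complex to the membrane when it is phosphorylated, and Ncf4 encodes p40phox, which binds a phosphoinositide of phagosome membranes. Ncf1 had 2 probe sets, annotated to the same sequence record, so they share a target and are not independent.

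The brighter Ncf1 probe set, 1451767_at, read 339, 223 and 418 on knockout-labelled arrays 5, 7 and 8. On wild-type arrays 5, 7 and 8 it read 578, 580 and 528. Every knockout-labelled array was below every wild-type array, with group means of 326 ± 98.1 and 562 ± 29.4 (SD, n = 3 each). The difference was -0.80 ± 0.26 (SE), a ratio of 0.575 with a 95% interval of 0.391 to 0.848, short of the threshold (limma adjusted p = 0.110; adjusted p from 0.0844 to 0.315 over 14 other settings). It was the largest difference among the 7 tested oxidase probe sets.

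The other Ncf1 probe set, 1425609_at, read 267, 233 and 292 on knockout-labelled arrays 5, 7 and 8, and 321, 360 and 377 on wild-type arrays 5, 7 and 8. It too was lower on every knockout-labelled array, by a smaller amount. Its difference was -0.40 ± 0.25 (SE; limma adjusted p = 0.416), a ratio of 0.759 with a 95% interval of 0.523 to 1.10. In both probe sets knockout-labelled array 7 was the lowest of the 6, and without it the differences were -0.56 and -0.32. In whole samples of sorted cells, fewer cells that carry a transcript and less of it per cell cannot be told apart.

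Ncf4 was higher on the knockout-labelled arrays. It read 1181, 1628 and 1132 on knockout-labelled arrays 5, 7 and 8, and 972, 1034 and 1044 on wild-type arrays 5, 7 and 8. The groups did not overlap, but array 7 stood above the other two knockout-labelled arrays. The means were 1314 ± 273 and 1016 ± 39.1 (SD, n = 3 each), and the difference was 0.35 ± 0.20 (SE; limma adjusted p = 0.369). Without knockout-labelled array 7 the difference was 0.18. The ratio was 1.27 with a 95% interval of 0.944 to 1.71.

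Promoter sequence from RefSeq (GRCm38.p6), covering 250 bases before to 50 after the start of each gene, was at hand for 3 of the 6 genes: Cybb, Cyba and Ncf1. Those of Ncf1 and Cybb are shown as those of the cytosolic organiser, whose probe sets were lower on every knockout-labelled array, and of the catalytic subunit. The letters searched on both strands were GAGGAA, an Ets-type core that PU.1 can bind, and AAATCA, which holds the AATC core that Gfi1 can bind. Among 32851 promoters of the same length, 28.3% held the first and 14.0% the second. GAGGAA was found once, in Cybb, on the strand opposite to the gene, from base 10 after its start. AAATCA was in none of the 3, and no match says only that these letters are not in this window. The shorter cores GGAA and AATC were not counted, and both stand in the Cybb sequence before the start. GGAA also stands before the start of Cyba and, on the strand opposite to the gene, of Ncf1. The capitals mark the match. The window around it lies at chrX:9469298-9469327, minus strand. The 250 bases before the start lie at chr5:134229626-134229875 for Ncf1 and at chrX:9469325-9469574 for Cybb, both on the minus strand.
Cybb window with the match: tgctgttttcatTTCCTCatcagaagaaga
Ncf1 before the start: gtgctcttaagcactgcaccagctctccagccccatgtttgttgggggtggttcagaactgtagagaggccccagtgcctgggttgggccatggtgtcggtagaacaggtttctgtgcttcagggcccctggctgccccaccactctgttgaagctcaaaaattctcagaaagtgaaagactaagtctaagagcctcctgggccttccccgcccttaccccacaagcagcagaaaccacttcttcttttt
Cybb before the start: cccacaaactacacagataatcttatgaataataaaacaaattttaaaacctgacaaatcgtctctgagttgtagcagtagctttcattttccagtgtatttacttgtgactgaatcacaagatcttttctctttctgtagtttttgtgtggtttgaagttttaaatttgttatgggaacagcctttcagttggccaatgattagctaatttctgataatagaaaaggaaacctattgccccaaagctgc

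The Rac GTPases complete the active enzyme. Rac2 is made mainly in blood cells and is the main oxidase GTPase of mouse neutrophils, whereas Rac1 is made in nearly all cells. Rac2 read 3715, 3426 and 3782 on knockout-labelled arrays 5, 7 and 8. On wild-type arrays 5, 7 and 8 it read 4627, 3985 and 3900. The groups did not overlap, but the gap between them was small against the spread of the wild-type arrays. The difference was -0.19 ± 0.16 (SE; limma adjusted p = 0.552), a ratio of 0.875 with a 95% interval of 0.693 to 1.11. Ncf4 and Rac2 lie on the same chromosome with 10 protein-coding genes of the RefSeq table between them, and their differences had opposite signs.

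Rac1 had 3 probe sets, which did not point the same way. The brightest, 1423734_at, read 3696, 4526 and 5166 on knockout-labelled arrays 5, 7 and 8, and 3521, 4015 and 4872 on wild-type arrays 5, 7 and 8. In both groups the array numbered 5 was the dimmest and the one numbered 8 the brightest, and the groups overlapped. The difference was 0.11 ± 0.18 (SE; limma adjusted p = 0.805), and the ratio of 1.08 had a 95% interval of 0.823 to 1.41. The sign is not settled: the difference was -0.0032 without knockout-labelled array 8 and -0.00051 without wild-type array 5.

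The second Rac1 probe set, 1451086_s_at, is annotated to the same sequence record as the first. It read 1080, 1466 and 1634 on knockout-labelled arrays 5, 7 and 8, and 1876, 1632 and 1524 on wild-type arrays 5, 7 and 8. Here the array numbered 5 was the dimmest of the knockout-labelled group and the brightest of the wild type, and the groups overlapped. The difference was -0.28 ± 0.20 (SE; limma adjusted p = 0.488), and -0.11 without knockout-labelled array 5. The dimmest, 1437674_at, lay between 93.4 and 140 on all 6 arrays, at or below the control level on 3 of them, and was not tested.

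Most oxidase probe sets differed in the same direction in each pair of samples with the same number. Cyba, Ncf4 and the brightest Rac1 probe set were higher in the knockout-labelled array of all 3 number pairs, 3 of 7 tested probe sets where 21.8% of all tested did so. Both Ncf1 probe sets and Rac2 were lower in all 3 pairs, 3 of 7 where the share of all tested was 22.8%. Non-overlap of the groups was seen for 1 of 7 in the higher direction (Ncf4, background 11.9%) and 3 of 7 in the lower (both Ncf1 probe sets and Rac2, background 12.1%). The differences between same-numbered samples ran from -1.32 to -0.33 for the brighter Ncf1 probe set and from 0.12 to 0.65 for Ncf4. In the fit blocked by sample number, 0 of the 7 passed in either direction, and the smallest adjusted p was 0.0844, for Ncf1.

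**Figure D2:**
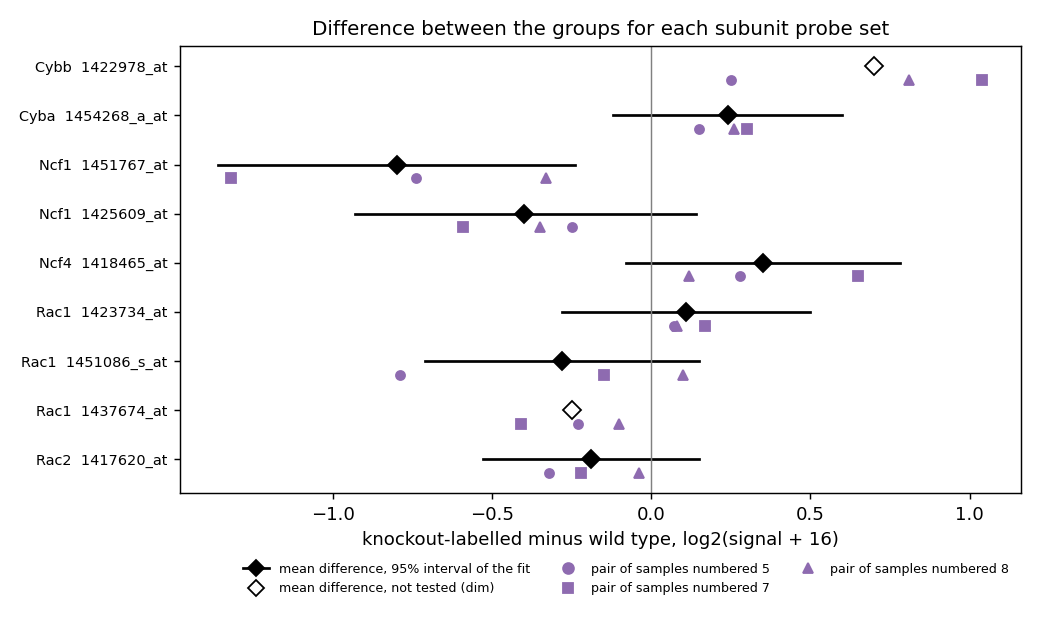
Difference of each oxidase probe set, knockout-labelled minus wild type on the log2(signal + 16) scale (horizontal axis); black diamonds are mean differences with the 95% interval of the limma fit, open diamonds the 2 probe sets too dim to be tested, and purple markers the differences between same-numbered samples. Apart from the brighter Ncf1 probe set, whose unadjusted interval is -1.36 to -0.24, every tested interval crosses 0.

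Other genes of the pathway were counted in lists by role, each gene by its brightest tested probe set. For comparison with the counts below, 9.08% of all probe sets tested were higher and 10.5% lower at a limma unadjusted p under 0.05. At a limma adjusted p under 0.05 the shares were 1.44% and 2.19%. Among further oxidase subunits, homologues and maturation factors, 7 genes were tested and limma called 0 in either direction (unadjusted p under 0.05: 1 higher, 1 lower), with a median of 0.07. Hsp90b1, an endoplasmic reticulum chaperone, stood at 0.55 ± 0.20 (SE; limma adjusted p = 0.136). Cybc1, the chaperone that lets the gp91phox and p22phox proteins accumulate, read 2082, 1599 and 2059 on knockout-labelled arrays 5, 7 and 8 and 2318, 2976 and 2340 on wild-type arrays 5, 7 and 8. It was lower on every knockout-labelled array, at -0.41 ± 0.19 (SE; limma adjusted p = 0.244). Poldip2 stood at 0.32 and Hmox1, a haem-degrading enzyme, at -0.43, neither past the threshold.

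Regulators of Rac, which load it with GTP, switch it off or hold it in the cytosol, numbered 18 tested genes, with 0 called by limma in either direction (unadjusted p under 0.05: 0 higher, 2 lower) and a median of -0.16. Dock2, a haematopoietic exchange factor for Rac, read 5088, 5644 and 4721 on knockout-labelled arrays 5, 7 and 8 and 6520, 6529 and 6795 on wild-type arrays 5, 7 and 8. Its groups did not overlap, and the difference was -0.36 ± 0.15 (SE; limma adjusted p = 0.190). Dock8, an exchange factor of the same family that acts on Cdc42, stood at -0.57 ± 0.19 (SE; limma adjusted p = 0.110). It passed with the sample number as a block (adjusted p = 0.0438). Dock1 stood at -0.48 and Sos1, an exchange factor for Ras and Rac, at -0.52, neither past the threshold.

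Of 29 tested kinases, lipid enzymes and small GTPases that act in oxidase activation, limma called 0 in either direction (unadjusted p under 0.05: 0 higher, 2 lower), and the median was -0.11. Rap1gap, which switches off the GTPase Rap1, read 340, 130 and 65.8 on knockout-labelled arrays 5, 7 and 8 and 441, 371 and 440 on wild-type arrays 5, 7 and 8. Knockout-labelled arrays 7 and 8 did not exceed their control levels of 158 and 100, so only array 5 of that group measured it, and the size of the difference is uncertain. The fitted difference was -1.41 ± 0.42 (SE; limma adjusted p = 0.0855). It passed with the sample number as a block (adjusted p = 0.0484) and, where both remaining knockout-labelled values were below the control level, without array 5 (adjusted p = 0.0121). Pik3r1, a regulatory subunit of phosphoinositide 3-kinase, stood at -0.76 ± 0.26, Akt1 at 0.33 and Rhoa at -0.24, none past the threshold. Of 18 tested cytoskeletal effectors of Rac, limma called 0 in either direction (unadjusted p under 0.05: 0 higher, 1 lower), and the median was -0.10. Cyfip2, a subunit of the WAVE complex through which Rac drives actin branching, stood at -0.54 ± 0.21, Baiap2 at -0.66, Iqgap2 at -0.40 and Iqgap1 at -0.27.

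Enzymes that use or remove superoxide and hydrogen peroxide held 1 call among 17 tested genes. Mpo, the granule peroxidase that turns hydrogen peroxide into hypochlorous acid, read 32139, 29663 and 26909 on knockout-labelled arrays 5, 7 and 8 and 13036, 12096 and 23370 on wild-type arrays 5, 7 and 8. It rose by 0.93 ± 0.21 (SE; limma adjusted p = 0.0252). That call was lost without any 1 of knockout-labelled arrays 5, 7 and 8 or of wild-type arrays 5 and 7 (adjusted p from 0.0680 to 0.120), without the brightness filter (0.103) and with eBayes without trend (0.111). Of the 17, 0 were lower (unadjusted p under 0.05: 4 higher, 1 lower), and the median was 0.19. Txn2 stood at 0.76, Txnrd2 at 0.68 and Srxn1, which repairs oxidised peroxiredoxins, at -0.68, none past the threshold, although without wild-type array 8 a pair of genes passed, Mpo and Txnrd2.

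Transcription factors known to act on the phagocyte oxidase genes held 1 call among 20 tested. Satb1, a chromatin organiser of lymphoid progenitors, fell by 1.08 on the log2 scale (limma adjusted p = 0.00601; 0.00408 to 0.0494 over its alternatives), and 0 were higher (unadjusted p under 0.05: 1 higher, 6 lower), with a median of -0.18. Spi1, which encodes PU.1, an activator of Cybb and Ncf1, read 809, 665 and 735 on knockout-labelled arrays 5, 7 and 8 and 634, 517 and 652 on wild-type arrays 5, 7 and 8. Its groups did not overlap, and the difference was 0.29 ± 0.21 (SE; limma adjusted p = 0.494). Irf8, which acts with PU.1 on Cybb, stood at 0.08 ± 0.18 (SE; limma adjusted p = 0.856). Spi1 and Irf8 were chosen after their values were seen, for their role. Hoxa9 stood at -0.50 (adjusted p = 0.0594), Elf1 at -0.65 (0.0873) and Crebbp at -0.95 (0.0797), and in the blocked fit Hoxa9 (0.0295) and Elf1 (0.0390) passed in limma.

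**Figure D3:**
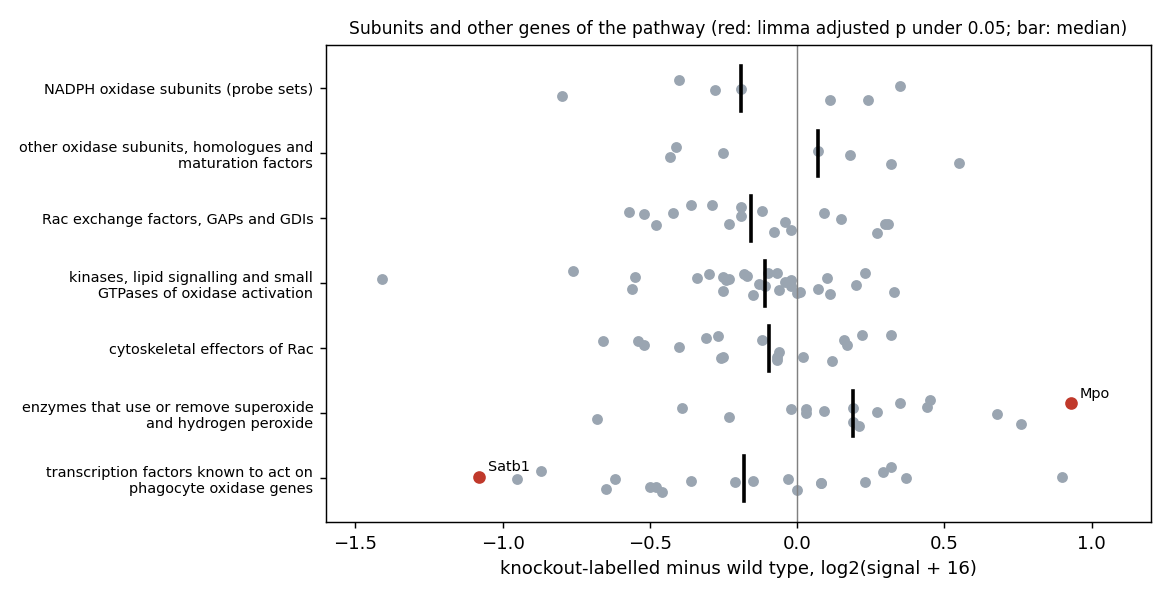
Differences of the 7 tested oxidase probe sets and of the tested genes of 6 pathway lists, knockout-labelled minus wild type on the log2(signal + 16) scale (horizontal axis); each point is a probe set or gene, red marks a limma adjusted p under 0.05 and the black bar is the median. Only Mpo and Satb1 are called, and the oxidase probe sets lie on both sides of 0 with a median of -0.19. That median counts Ncf1 and Rac1 more than once, whereas each list counts a gene once.

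Markers of mature myeloid cells moved in the same arrays. Of 9 tested neutrophil markers 5 were lower and 1 higher by limma, and their summed signal over 11 matched genes was 7323 to 14867 on knockout-labelled arrays and 20964 to 41980 on wild-type arrays. Of 12 tested monocyte and macrophage markers 4 were higher and 0 lower, and their summed signal over 13 matched genes was 38070 to 41444 against 25309 to 31340. All 11 and all 13 exceeded the control level on at least 1 array, 8 and 11 of them on every array. For Cybb, Cyba and Rac1 the groups overlapped. Ncf1 and Rac2 lay lower, and Ncf4 higher, in the same knockout-labelled arrays that had less neutrophil and more monocyte marker signal. Because all of these follow the group labels, no oxidase gene can be matched to either list. The part of mature myeloid cells in the oxidase values was not tested.

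Lists for other blood cells gave few calls. By limma 0 were called among 5 tested B cell markers, 1 T and NK cell marker, 5 erythroid, 4 megakaryocyte and 2 eosinophil markers. Of 4 mast cell and basophil markers 1 was higher, Hdc, and of 4 dendritic cell markers 1 was lower, Flt3. Kit, which is in the LSK definition, was lower. Of Cd34, Flt3 and Cd48, which are not in it, Flt3 was lower.

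The genes most like each subunit over the 6 arrays were found by the root mean square difference of log2 values, each centred on its own mean. Out of 8239 candidates, those nearest to Cybb were Rnf186 (0.128), Ifngr2 (0.139) and Slc2a1 (0.216), where Cybb's own root mean square deviation was 0.588. For Ncf1 they were Smox (0.121), Dbp (0.132) and Rab2b (0.151), against 0.474. For Ncf4 they were Pum3 (0.0562), Utp20 (0.0783) and Chchd10 (0.0822), against 0.240. Those of Cyba were Qdpr, Tubb5 and Atp5g3, those of Rac1 Timm29, Dalrd3 and Sdha, and those of Rac2 Rtf2, Cstf2 and Ctnnb1, at 0.0248 to 0.0507. No oxidase subunit was among the 3 nearest of another. Cybb was not tested and so was not a candidate. With 3 places among so many candidates, this says little about whether the subunits vary together.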

How the data were processed

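Flow-sorted LSK cells were profiled on single-colour Affymetrix arrays, with biotin-labelled cRNA made from 10 ng of RNA by 2 rounds of amplification, per the labels' protocols. The authors deposited 1 scanner intensity for each array and probe set, on a linear scale, made with MAS5 per the submitters' processing notes; its version and settings were not given in the sources used here. Every column had a 2% trimmed mean of about 1000, so the arrays were already scaled. The number of arrays limits the precision.

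From these, log2(signal + 16) was computed, of 22626 probe sets the brightest 60% by mean log2 value were tested, 13575 in all, and limma 3.58.1 in R 4.3.3 (lmFit, eBayes with trend) compared 3 knockout-labelled with 3 wild-type arrays across all of them, two-sided, with Benjamini-Hochberg adjustment and a threshold of 0.05. The fit was tested on simulated data. Intervals are 95% intervals of the fit, not adjusted. Alternatives were pseudocounts of 1 and 64, no filter or the brightest 40%, median centring, quantile and cyclic loess normalization, eBayes without trend, the sample number as a block, and each array left out. Same-numbered samples deviated together from their group means (correlations of 0.159, 0.168 and 0.238), and those of different numbers did not (-0.134 to -0.0307). Centring on the group means pushes the second values below 0 where the first lie above it, so these are not separate evidence. From the first values the numbers were treated as a pairing for the block among the alternatives, and the main fit had no block. Named genes were every oxidase probe set, Gfi1, the 4 genes of smallest p in each list and the 3 nearest patterns. Genes and lists were chosen with earlier results of these data known. Of the 64 AFFX control probe sets none was tested. Probe sets with several symbols (691) or none (1555) were not named. A planned comparison of the Rac1 and Rac2 proteins was not made, and their sequences were not analysed here.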

Additional observations from a re-analysis of the deposited data

How the results depend on the processing

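The counts of oxidase probe sets called, 0 higher and 0 lower, were 0 under all 15 alternatives. With the brightest 40%, neither Ncf1 probe set was tested, so the count there leaves Ncf1 out. Differences kept their sign for 8 of the 9 probe sets. The brightest Rac1 probe set ran from -0.0032 (without knockout-labelled array 8) to 0.24 with 1 array left out, with -0.00051 without wild-type array 5. With 1 array left out the differences ran from 0.45 to 1.13 for Cybb, 0.14 to 0.33 for Cyba, -0.99 to -0.56 for the brighter Ncf1 probe set, 0.18 to 0.44 for Ncf4 and -0.24 to -0.12 for Rac2. Signal over background limits Cybb and the dimmest Rac1 probe set, which lie near the control level. The list of peroxide enzymes had 1 higher call, but 0 without the brightness filter, 0 with eBayes without trend, and 0 to 2 with 1 array left out. The list of Rac regulators had 0 lower calls, 1 with the replicate block (Dock8) and 1 without the filter, the dim Tiam2, which is tested only there. The kinase list had 0 lower calls, 1 with the replicate block, and 0 to 1 with 1 array left out. The transcription factor list had 1 lower call, 2 with the brightest 40%, 2 with quantile and 2 with cyclic loess normalization, 3 with the replicate block, and 1 to 2 with 1 array left out. Among the oxidase probe sets and the genes of these lists, the replicate block added Dock8, Rap1gap, Hoxa9 and Elf1 and changed no other call; calls in the marker lists were not counted under it. Over all probe sets, 196 higher and 297 lower calls became 320 and 479 with the block, 69 and 119 without the filter, 57 and 124 with eBayes without trend, and 169 and 193 with median centring. With 1 array left out they ran from 34 to 266 higher and 90 to 282 lower. The cause of these changes was not tested, beyond fewer arrays in the fits with 1 left out.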
